A study of Mus musculus with 4 samples.

Results

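The node, notochord and floor plate, the midline tissues of the early embryo, pattern their neighbours through secreted proteins, and 8 genes of such proteins are described here: Shh, Chrd, Nog, Fst, Ntn1, Slit1, Slit2 and Sema3c. They were taken by gene name from the array's annotation, updated through the accessions, which gave 15 probes of 41174 (8 genes of 27591). Expression was compared between mouse embryos homozygous and heterozygous for a GFP allele of Noto, which encodes a homeobox factor made in the node and notochord. The series concerns effectors of FOXJ1, a regulator of motile cilia. The tested embryos were Noto GFP/GFP and the embryos they were set against were Noto GFP/+, so by the sample labels both carried the allele. The series' design text instead calls the compared samples wildtype and mutant; the sample labels were followed, and the files used here do not settle which is right. All were at the early headfold stage, about E7.75, on a mixed Sv129/CD-1 background, with no treatment. The distal piece of each embryo, which holds the node and the tissue around it, was pooled, 120 to 150 embryos to a pool, and the labels differ on how large a share of the embryo the piece was. One RNA pool of each genotype was hybridised on 2 two-colour arrays with the dyes exchanged, giving 2 samples per genotype. On array 1 the homozygous pool carried Cy5 and on array 2 it carried Cy3.

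Sonic hedgehog (Shh) is a lipid-modified ligand that leaves the notochord and floor plate, binds the receptor Patched and so releases Smoothened, which turns on target genes through Gli factors. Chordin and noggin, made by the node and notochord, bind BMP ligands outside the cell and keep them from their receptors, and follistatin does the same chiefly for activins. Netrin 1 and the Slits are guidance cues of the floor plate, read by DCC-family and Roundabout receptors, and semaphorin 3C is read by neuropilins and plexins.

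All values below are log2 intensities or log2 ratios of Noto GFP/GFP over Noto GFP/+, as the mean ± SD of the 2 arrays. That SD is technical, since both arrays hold the same pools, and it supports no test of the genotypes. Measured probes are those that exceeded background clearly, by the scanner software's flag, in 1 genotype or more on each array. The genotype could differ between the arrays. Higher or lower calls were made at 1.5-fold or more (a log2 ratio of 0.58) with the same sign on each array. Of the 15 probes, 8 were measured, and they covered 7 genes. Sema3c had no measured probe. Across the series 27788 probes of 18607 genes were measured, and on the 2 arrays 64.0% to 81.5% of gene spots were well above background. The level of Noto was not analysed here and so does not check the labels.

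The probes that carry the values are 60 bases long and lie on mouse build mm8 as given by the array's annotation. They are shown because 1 probe decides the value of most of these genes. Capitals mark stop triplets (TAA, TAG or TGA) in whichever frame they fall, which shows where a probe can lie in coding sequence. The Nog probe is open in all 3 frames, those of Chrd and Slit1 in 2 and that of Fst in 1. The probes of Shh and Ntn1 and the dimmer of the 2 Slit2 probes have a stop in every frame (0 open frames), and for these, and for the brighter Slit2 probe, the first 30 bases are given. The last capital of the Ntn1 stretch is the first base of a stop triplet that runs past base 30.
Shh, chr5:28788230-28788289, minus strand: aatttattattgtgTGAactgtactcacag
Nog, chr11:89117625-89117684, minus strand: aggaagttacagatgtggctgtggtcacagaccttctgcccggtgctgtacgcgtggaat
Chrd, chr16:20652519-20652691, plus strand: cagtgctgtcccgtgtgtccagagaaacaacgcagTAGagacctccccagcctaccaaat
Fst, chr13:115575362-115576034, minus strand: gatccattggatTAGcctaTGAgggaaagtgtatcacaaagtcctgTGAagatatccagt
Ntn1, chr11:68026504-68026563, minus strand: tatTAAcagagttgTGAtatgTAGgtcttT
Slit1, chr19:41656641-41656700, minus strand: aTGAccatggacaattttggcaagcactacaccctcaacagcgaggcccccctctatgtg
Slit2, brighter probe, chr5:48593511-48593570, plus strand: cctccttcaggacacttgcagaaggtttgc
Slit2, dimmer probe, chr5:48592885-48592944, plus strand: gacacatcgagcacaagtgtgTGAgTGAga
The Chrd and Fst probes cover 173 and 673 genomic bases with 60 bases of sequence, so each crosses at least 1 intron. Whether the other probes lie in coding exons or untranslated regions was not examined further.

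None of the 8 measured probes was called (0 of 8), where 2.08% of all measured probes were, and 0 of the 7 genes, where 2.39% of all measured genes were. The members split by gene. Shh, the hedgehog ligand, and Nog, the BMP antagonist noggin, had ratios below 0 on both arrays, at 0.735 and 0.756 of the heterozygous level. Chrd, Slit1 and Slit2 had ratios above 0 on both, and Fst and Ntn1 had opposite signs on the arrays. Below 0 on both arrays were 2 of 7 genes, where 34.0% of all measured genes were, and above 0 on both were 3 of 7, where 25.7% were. The median of the 7 genes was -0.01, and that of all measured genes was -0.02.

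**Figure D1:**
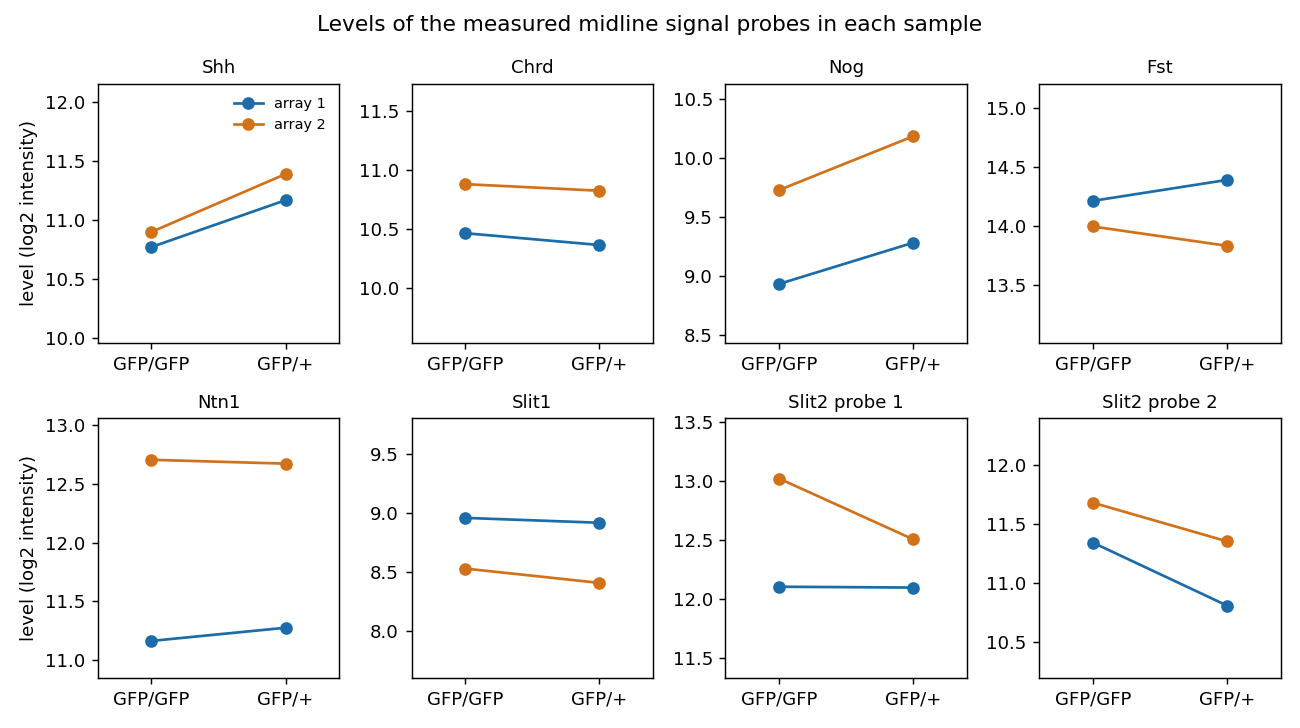
Levels of the 8 measured probes, as log2 intensity after loess and Aquantile normalization, in Noto GFP/GFP (left) and Noto GFP/+ (right), with a line joining the genotypes of 1 array. Each panel spans the same log2 range around its own mean. On both arrays the homozygous pool lies below the heterozygous pool for 2 probes, those of Shh and Nog. It lies above on both arrays for 4 probes, those of Chrd, Slit1 and Slit2, and the lines of Fst and Ntn1 slope opposite ways.

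Shh had levels of 10.77 and 10.90 in Noto GFP/GFP, against 11.17 and 11.39 in Noto GFP/+, on arrays 1 and 2. Both homozygous levels lay below both heterozygous levels, an order that 16.6% of all measured genes showed. The ratio was -0.40 on array 1 and -0.49 on array 2, with a mean of -0.44 ± 0.07, or 0.735 of the heterozygous level. In a pooled tissue, fewer midline cells and less Shh RNA per cell cannot be told apart. Signal was far from background in both genotypes, with foreground 33.0 and 29.3 times the local background in Noto GFP/GFP and 28.4 and 71.8 times in Noto GFP/+.

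The array carried 10 spots of the Shh probe, which shows the spread between spots within each hybridisation. On array 1 the spots had levels of 10.16 (lowest), 10.80 (median) and 11.12 (highest) in Noto GFP/GFP, against 10.76, 11.15 and 11.52 in Noto GFP/+. On array 2 they had 10.72, 10.88 and 11.14 in Noto GFP/GFP, against 11.21, 11.37 and 11.63 in Noto GFP/+. The spots of the genotypes overlapped in level on array 1 and did not on array 2. Within a spot, the ratio was below 0 on 10 of 10 spots of each array, from -0.60 to -0.33 on array 1 and from -0.53 to -0.46 on array 2. How many other probes with 10 spots had 1 sign on all spots, or levels that did not overlap, was not counted. The SD over spots was 0.092 on array 1 and 0.021 on array 2, where the median probe with 10 spots had 0.051 and 0.036. Of the 190 measured probes with 10 spots, 4 had ratios at or below those of Shh on both arrays, Shh included, and 1 was called lower. Spots of 1 array share the same labelled RNA and are not replicates of a genotype.

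**Figure D2:**
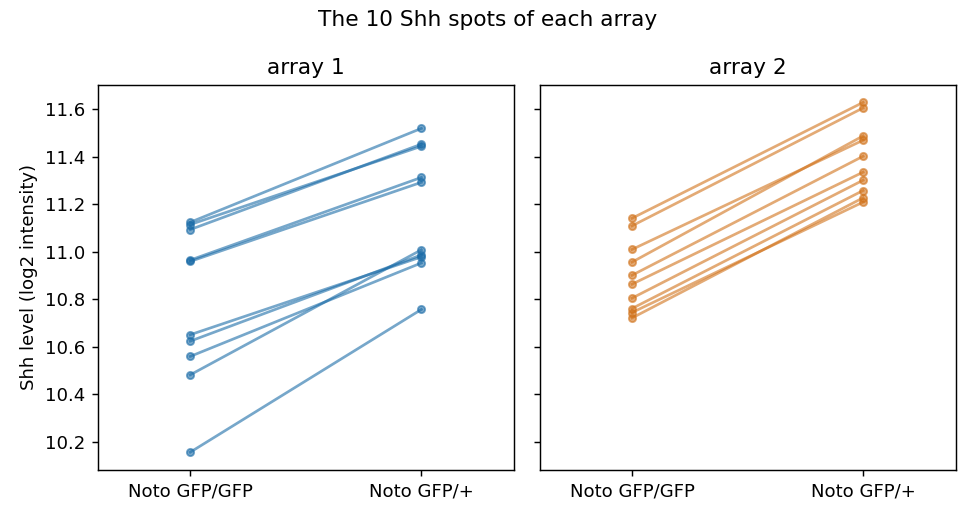
Level of each of the 10 Shh spots on each array, as log2 intensity, in Noto GFP/GFP (left) and Noto GFP/+ (right), with a line joining the 2 genotypes of a spot. All lines lie lower at the homozygous end, and the spots of array 1 spread more, with an SD of the ratio of 0.092 against 0.021 on array 2.

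Among all measured genes, 739 (3.97%) had ratios at or below those of Shh on both arrays, Shh included. At a limit of 1.3-fold on each array, in either direction, 1 of 8 member probes passed, that of Shh, which was lower. Lower by that limit were 4.33% of all measured probes. The value for array 1 moved with the normalization, as did the median of all measured genes on that array. With median centring in place of loess, Shh read -0.01 on array 1 and -0.55 on array 2. All measured genes then had medians of 0.39 and -0.16 on the arrays, and relative to these Shh read -0.40 and -0.39. Loess, which follows the dye difference along brightness, gave the -0.40 and -0.49 above.

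Nog had levels of 8.93 and 9.73 in Noto GFP/GFP, against 9.28 and 10.19 in Noto GFP/+. On each array the homozygous pool lay below the heterozygous pool, but the arrays differed from each other by more than the genotypes did, so the levels of the genotypes overlapped across arrays. The ratio was -0.35 on array 1 and -0.46 on array 2, with a mean of -0.40 ± 0.08, or 0.756 of the heterozygous level. Among all measured genes 857 (4.61%) were as low or lower on both arrays, Nog included. With median centring Nog read -0.23 and -0.51, with a mean of -0.37. Relative to the medians of all measured genes under that setting it read -0.62 and -0.35, with a mean of -0.49. The value of Nog on array 1 thus moved with median centring. Under the other background corrections and normalizations, in the software's log ratios and in the value table, it read -0.38 to -0.34 on array 1.

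Chrd, chordin, the other BMP antagonist of the node, did not follow Nog. It had levels of 10.46 and 10.88 in Noto GFP/GFP, against 10.36 and 10.82 in Noto GFP/+. The ratios were 0.10 and 0.06, with a mean of 0.08 ± 0.03, which is smaller than the median SD of all measured genes, 0.12. On both arrays Chrd and Nog stood on opposite sides of 0, a difference between 1 probe each that was not tested. With median centring Chrd read 0.43 on array 1 and -0.01 on array 2, where it was then on the same side as Nog. Relative to the medians of all measured genes under that setting it read 0.04 and 0.16, on the other side from Nog on both arrays.

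Fst, the activin antagonist follistatin, had levels of 14.21 and 13.99 in Noto GFP/GFP, against 14.39 and 13.83 in Noto GFP/+. The ratio was -0.18 on array 1 and 0.16 on array 2, so the genotypes were not separated and the mean of -0.01 lay well within its SD of 0.24.

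**Figure D3:**
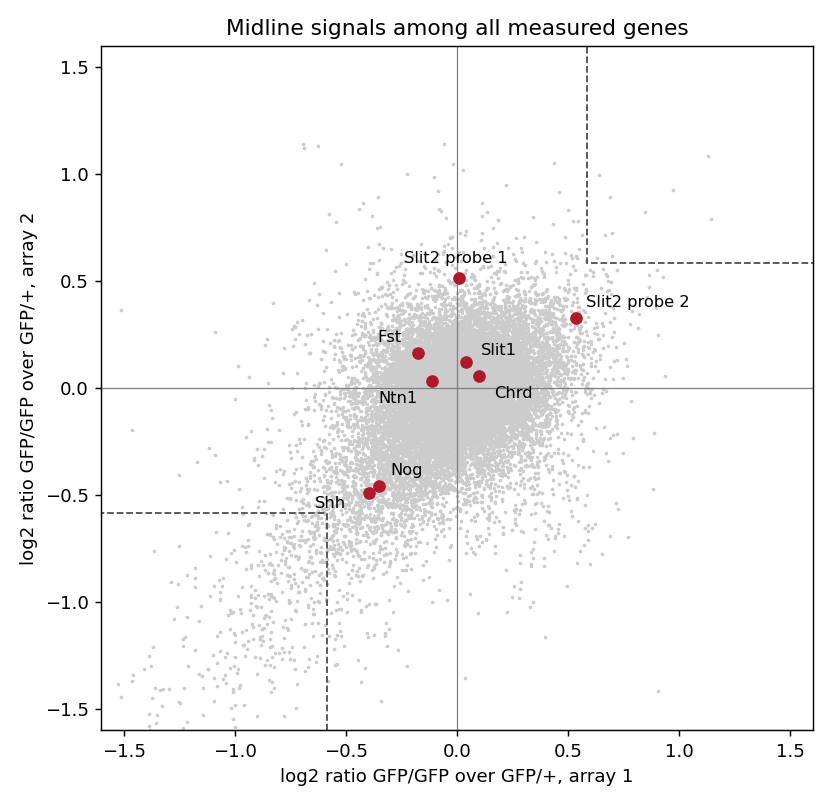
Log2 ratio of Noto GFP/GFP over Noto GFP/+ on array 1 (horizontal) and array 2 (vertical) for all measured genes (grey) and the 8 measured member probes (red), with dashed corners at 1.5-fold on both arrays. No red point lies inside a corner, Shh and Nog lie together at the lower left, and 40 genes lie outside the axes.

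Among the guidance cues, Ntn1, netrin 1, had levels of 11.17 and 12.70 in Noto GFP/GFP, against 11.28 and 12.67 in Noto GFP/+. Its ratios of -0.11 and 0.03 gave a mean of -0.04 ± 0.10, and the arrays differed far more than the genotypes. A second Ntn1 probe, which lies at chr11:68042746-68042805, was not measured. It was well above background on 1 of 2 arrays in each genotype, the same array for both.

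Slit1 had levels of 8.96 and 8.53 in Noto GFP/GFP, against 8.92 and 8.41 in Noto GFP/+. The ratios of 0.04 and 0.12 averaged 0.08 ± 0.06, and the levels of the genotypes overlapped across arrays.

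Slit2 had 6 probes, of which 2 were measured, both assigned to the curated transcript and starting 626 bases apart. The brighter had levels of 12.11 and 13.02 in Noto GFP/GFP, against 12.10 and 12.51 in Noto GFP/+. Its ratios were 0.01 on array 1 and 0.52 on array 2, with a mean of 0.26 ± 0.36, so nearly all of the difference lay on array 2. The dimmer probe had levels of 11.34 and 11.68 in Noto GFP/GFP, against 10.81 and 11.35 in Noto GFP/+. Its ratios were 0.53 and 0.33, with a mean of 0.43 ± 0.15. The dimmer probe thus read above 0 by more than its SD, while the brighter did not, and neither met the size rule. Among all measured genes 120 (0.645%) had ratios at or above those of the brighter probe on both arrays, Slit2 included. By mean ratio 1026 (5.51%) were as high as that probe, where 1088 (5.85%) were as low as Shh. The other 4 Slit2 probes, annotated to separate cDNA clones, were not measured: 2 were well above background on array 1 alone and 2 on neither array.

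Sema3c, a class 3 semaphorin, was near the limit of detection. Its probe on the curated transcript had levels of 6.95 and 7.12 in Noto GFP/GFP, against 6.55 and 6.92 in Noto GFP/+. It was well above background on 1 of 2 arrays in the homozygous pool and on 0 of 2 in the heterozygous pool, so no fold is given. The other probe, annotated to a cDNA clone, was not well above background in any of the 4 samples.

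**Figure D4:**
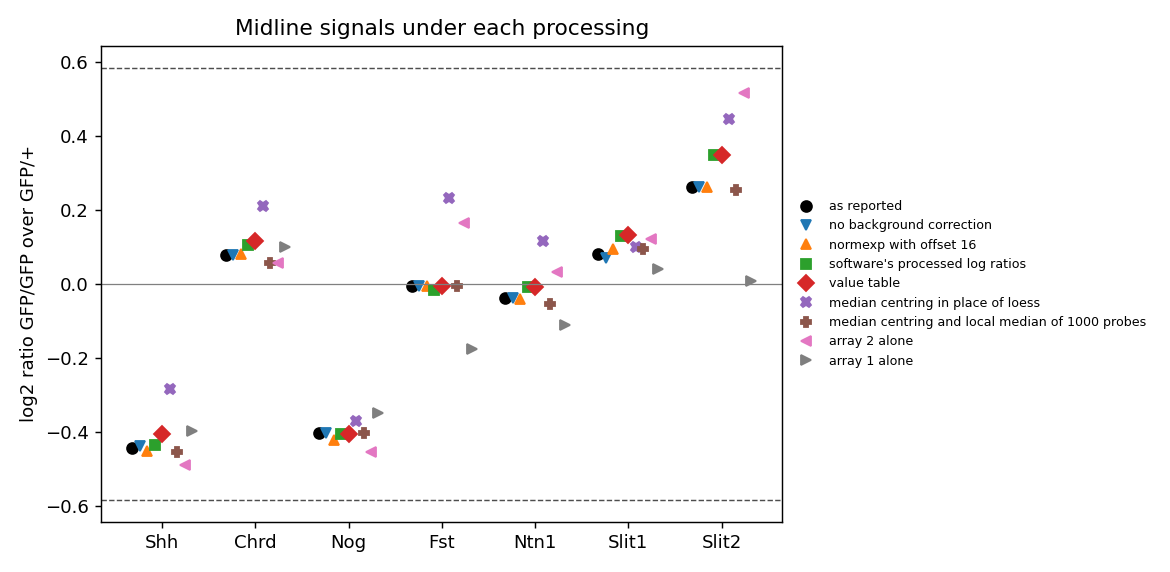
Log2 ratio of Noto GFP/GFP over Noto GFP/+ for each measured member (brightest probe) under each processing, with dashed lines at 1.5-fold. Shh and Nog lie below 0 under every setting drawn, Chrd, Slit1 and Slit2 lie above 0 under all of them, and Fst and Ntn1 cross 0.

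The pathways around these ligands were described by 9 lists of ligands, receptors, other antagonists, transducers and targets. Of their 131 genes, 130 were on the array and 117 were measured; 2 were lower (1.71%), both named next, and 0 were higher. Among all measured genes 2.33% were lower and 0.0591% higher.

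Of the hedgehog genes that act on ligand release and reception, 15 were measured, with a median of -0.02, and 1 was lower. This was Hhat, the acyltransferase that attaches palmitate to hedgehog proteins. It had levels of 10.04 and 9.22 in Noto GFP/GFP, against 10.68 and 9.99 in Noto GFP/+, with a ratio of -0.70 ± 0.10, but its second probe read 0.12. The receptor gene Ptch1, which is also a target, read -0.26 ± 0.07 on its brighter probe and 0.28 on the dimmer, so its probes disagreed in sign. Smo, the transducer that Patched restrains, read -0.02 ± 0.44 with another probe at 0.29, and the endocytic receptor gene Lrp2 read 0.39 ± 0.12.

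Among 20 measured transducers and targets of hedgehog signalling 0 were called, with a median of -0.03. The Gli target Gli1 read -0.12 ± 0.12 and Foxa2, a regulator of the node and floor plate, read 0.10 ± 0.29. The members farthest from 0 were Pax6, a neural factor that hedgehog signalling represses, at 0.45 ± 0.14, and Pax9, a factor of the sclerotome, at -0.43 ± 0.14.

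BMP ligands and receptors gave 0 calls among 14 measured genes and a median of 0.01. Bmp4 read -0.17 ± 0.15, Bmp2 read -0.04 ± 0.05 and the receptor gene Bmpr1a -0.04 ± 0.24, with another probe at 0.19. The ratios farthest from 0 were those of Smad1, a transducer, at -0.33 ± 0.43, and Bmp7, at -0.24 ± 0.06.

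Other antagonists and modulators of BMP and activin went both ways. Of 15 measured, 1 was lower: Nbl1, which encodes the BMP antagonist DAN, at -0.79 ± 0.03, with ratios of -0.77 and -0.81. Sostdc1, a BMP and Wnt antagonist, read 0.50 ± 0.27, and Cer1, the antagonist made by anterior endoderm, 0.21 ± 0.01. Hhat (-0.31) and Nbl1 (-0.25) were short of the rule on array 1 with median centring in place of loess. On array 2 they read -0.83 and -0.91. All measured genes then had medians of 0.39 on array 1 and -0.16 on array 2. On array 1 both genes thus lay farther below the median gene than below 0. Centring on the probes nearest in brightness, chosen after seeing the data, gave -0.67 and -0.75 for Hhat and -0.77 and -0.82 for Nbl1, both called.

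Among 10 measured BMP target genes, 7 had ratios below 0 on both arrays and 1 above, where 34.0% and 25.7% of all measured genes did. Their median was -0.15, with 0 calls. All 10 means lay between -0.24 and 0.32. Msx1 read -0.24 ± 0.02 and Tbx20, a factor of the heart field, 0.32 ± 0.09, though its second probe read -0.09.

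Genes of activin, myostatin and inhibin ligands, receptors and transducers gave 0 calls among 10 measured and a median of 0.03. The activin subunit gene Inhba was not measured, Inhbb read 0.26 ± 0.20 with another probe at -0.08, and Inha, the inhibin subunit, -0.30 ± 0.23.

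Of other netrins and netrin receptors 9 were measured, 0 were called and the median was -0.09. The receptor gene Dcc read -0.10 ± 0.27 and Neo1, encoding neogenin, 0.11 ± 0.04. Ntn3 read -0.20 ± 0.09. Probes disagreed in sign for Ntng1, at -0.41 ± 0.62 and 0.26, and for Neo1, whose other probes read 0.07 and -0.51.

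Slit3, the remaining Slit gene, had levels of 13.49 and 13.14 in Noto GFP/GFP, against 12.81 and 12.62 in Noto GFP/+. Its ratios of 0.68 and 0.53 averaged 0.60 ± 0.11, short of the rule on array 2, and its second probe read 0.22. Both homozygous levels lay above both heterozygous ones, as for 10.7% of all measured genes. In the list of Slit3, Roundabout receptors and effectors, 0 of 9 were called and the median was 0.06. The receptor genes Robo1 and Robo2 read -0.18 ± 0.36 and 0.06 ± 0.09, and Srgap1, a Roundabout effector, read 0.39 ± 0.11 with a second probe at 0.35.

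Other class 3 semaphorins and their receptors also gave 0 calls, among 15 measured, with a median of 0.07. Above 0 on both arrays were 9 genes, where 25.7% of all measured genes were. Plxna2 read 0.45 ± 0.24, and the neuropilin genes Nrp2 and Nrp1 read 0.28 ± 0.10 and 0.09 ± 0.11. The 2 other Nrp1 probes read -0.27 and 0.39.

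**Figure D5:**
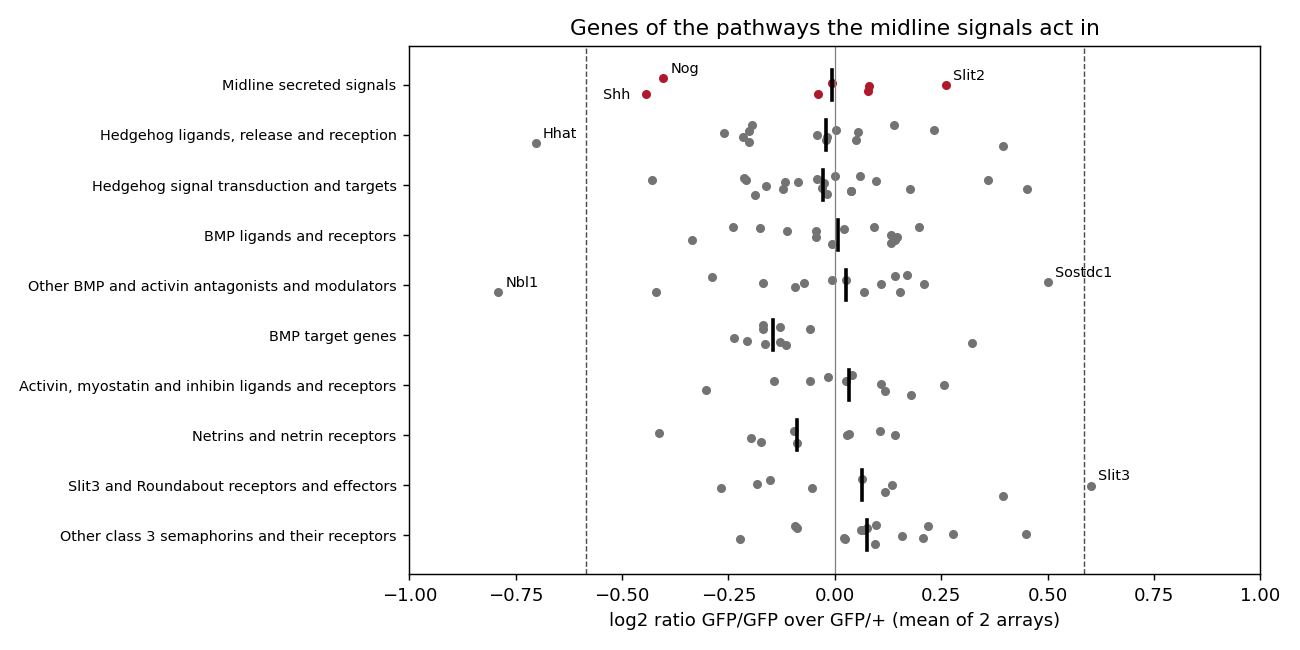
Mean log2 ratio of Noto GFP/GFP over Noto GFP/+ over the 2 arrays for each measured gene of the member set (red) and of the 9 pathway lists (grey), with a black bar at each median and dashed lines at 1.5-fold. Hhat and Nbl1 lie left of the lower line and Slit3 just right of the upper one, where it was short of the rule on array 2.

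Markers show which tissues the pieces held. Of 20 node, notochord and floor plate markers 18 were measured, and all 18 were well above background in both genotypes on both arrays; Pkd1l1 and Lmx1a were not measured. Their median was -0.10, with 11 below 0 on both arrays, where 34.0% of all measured genes were, and 1 lower, Tppp3 (-0.82 ± 0.16). Gsc, a factor of the organiser, read -0.66 ± 0.20, Foxj1 read -0.52 ± 0.09 and T, the notochord factor, 0.33 ± 0.02. The summed level of the list, which its brightest probes dominate, was 19.06 to 19.19 in Noto GFP/GFP and 19.12 to 19.23 in Noto GFP/+. Its mean log2 level, which weights the genes equally, was 13.05 to 13.13 in Noto GFP/GFP and 13.19 to 13.32 in Noto GFP/+. The genotypes did not overlap and differed on the same side as Shh and Nog, an order that the neural and mesoderm lists below also had. Shh and Nog thus read below 0 beside some node genes and not beside others, and the part of node cell number in this was not tested.

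Other tissues were present in both pools. Neural and surface ectoderm markers had a median of -0.16, with 0 called and Zic2 at -0.64 ± 0.32. Of these markers 6 of 10 were below 0 on both arrays, where 34.0% of all measured genes were. The summed level of these ectoderm markers was 17.00 to 17.03 in Noto GFP/GFP and 16.97 to 17.24 in Noto GFP/+. Their mean log2 level, which did not overlap, was 11.67 to 11.75 in Noto GFP/GFP and 11.81 to 11.93 in Noto GFP/+. Mesoderm markers had a median of -0.01, with 1 of 11 lower, Meox1 (-0.62 ± 0.04), and Hand1 at -0.33 ± 0.15; their summed level was 17.65 to 17.76 in Noto GFP/GFP and 17.58 to 17.84 in Noto GFP/+. Their mean log2 levels did not overlap, at 11.98 to 12.07 in Noto GFP/GFP and 12.12 to 12.13 in Noto GFP/+. Endoderm markers had a median of 0.02 with 0 of 12 called, Foxa3 at -0.51 ± 0.02 and Cubn at 0.24 ± 0.18, and summed to 17.74 to 17.78 in Noto GFP/GFP and 17.66 to 17.87 in Noto GFP/+. Their mean log2 levels overlapped, at 12.90 to 12.96 in Noto GFP/GFP and 12.96 to 12.97 in Noto GFP/+. Of 12 blood, trophoblast and decidua markers 2 globins were lower, Hbb-bt (-1.36 ± 0.07) and Hba-a1 (-1.05 ± 0.18), and 1 was higher, Prl8a2 (1.11 ± 0.03). Over all measured genes 2.33% were lower and 0.0591% higher. Not called were the embryonic globins Hbb-y (-0.44 ± 0.12) and Hbb-bh1 (-0.19 ± 0.03), and Prl3d1 (0.36 ± 0.09). In this list 6 of 12 genes were below 0 on both arrays and 4 above 0 on both. The summed level of that list was 13.59 to 13.95 in Noto GFP/GFP and 14.19 to 14.53 in Noto GFP/+, while its mean log2 levels overlapped, at 9.41 to 9.72 in Noto GFP/GFP and 9.59 to 9.87 in Noto GFP/+. The part of these tissues in the values of Shh and Nog was not tested.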

How the data were processed

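Arrays were Agilent 2-colour arrays. Per the file headers, the authors read them with Agilent Feature Extraction (9.5.3.1, also in the submitters' processing notes), which wrote spot and background intensity, a log10 ratio of red over green, and flags (other) per spot. The 2 files deposited for each array were identical, so each array was read once. The authors' deposited value table holds intensities floored at 15, and its scaling is not stated.

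From mean foreground and median background intensity, limma 3.58.1 (R 4.3.3) applied normexp (offset 50) and loess, with control spots at weight 0. Outlier spots (179 and 165) were dropped and 0 gene spots were saturated. Dyes were turned by the labels, spots of a probe were averaged, and levels were taken after Aquantile. A gene takes its brightest measured probe. Names were updated through RefSeq (GRCm38.p6, names only): 33116 probes matched and 8058 kept theirs. The procedure was tested on simulated data with changes larger than those of any measured member, so ratios of the members' size were not covered. Summaries used Python 3.11.15, numpy 2.4.6, pandas 2.3.3 and matplotlib 3.10.9.

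The members, lists and rules were chosen with earlier results of these data known. Named genes are the members, called list genes (otherwise those farthest from 0) and 17 pathway genes whatever their values. A result for 1 of the genes so named is not reported here. Alternatives were other background corrections, median centring, the value table, log ratios from the software, each array alone, other fold limits, no filter and the mean of probes.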

Additional observations from a re-analysis of the deposited data

How the results depend on the processing

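No paired analysis was possible because each ratio already pairs the genotypes within 1 array, which leaves no unpaired fit to set against it, and the array numbers name hybridisations of the same pools. Having 1 pool per genotype limits every value, and low signal limits Sema3c and 4 of the 6 Slit2 probes. The count of called member probes was 0 with each background correction and normalization, in the value table and in the log ratios of the scanner software, on either array alone, at 2-fold and with unmeasured probes included, and 1 (Shh) at 1.3-fold. With median centring Shh read -0.28, Chrd 0.21 and Slit2 0.45, and the means of Ntn1 (0.11) and Fst (0.23) turned in sign, where all measured genes had a median of 0.12, and Chrd read 0.12 in the value table. On single arrays Shh ranged from -0.49 to -0.40, Nog from -0.46 to -0.35 and Chrd from 0.06 to 0.10. Centring on the 1000 probes nearest in brightness, chosen after seeing the data, gave -0.45 for Shh, 0.06 for Chrd and -0.40 for Nog. Called pathway genes numbered 0 with median centring and at 2-fold, 1 with the mean of probes, 4 in the software's log ratios and 4 in the value table (Pax1 and Sostdc1 added), and 2 to 8 on single arrays, against 2 as reported. With the mean of probes Hhat no longer counted. Called genes in all numbered 814 in the software's log ratios and 746 in the value table, against 445 as reported. Over all measured genes, the ratios of the 2 arrays correlated at 0.50 with loess and at -0.05 with median centring. Medians of all measured genes under median centring were 0.39 on array 1 and -0.16 on array 2, and the counts under that setting did not take these off. With centring on the 1000 probes nearest in brightness, 2 pathway genes were called. The cause of these shifts was not tested.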

Other observations

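Genes with the most similar ratios on the 2 arrays were sought among 14743 measured genes with a real symbol, by distance in the plane of both log2 ratios. Nearest to Shh were Olfr945, Ipcef1 and Vmn1r218, within 0.012, and 114 genes lay within 0.1 of Shh. Nearest to Nog were Cep76, Zfp114 and Gemin2, within 0.012, with 155 genes within 0.1. Nearest to Chrd were Fer1l4, Orc1 and Mphosph9, within 0.003, with 1552 genes within 0.1. With 2 ratios per gene, such likeness describes these arrays only.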
